A study of Mus musculus with 49 samples.

Results

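The genes described here make cholesterol or move it: 30 mouse genes of cholesterol synthesis, uptake and efflux, of 22869 gene symbols measured. They were picked by symbol, and each symbol is represented by the transcript row whose values sum highest over the libraries. Msmo1 was found under its older symbol Sc4mol. The 30 fall into 7 genes of the mevalonate steps, 11 of the squalene and sterol steps, 4 of sterol sensing, 4 of uptake and intracellular transport, and 4 of efflux and its control by the liver X receptors (LXR). The first 18 are called the enzymes of synthesis below.

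White fat of 2 inbred mouse strains, 129S1/SvImJ and C57BL/6, was profiled by RNA-seq in 43 libraries. Mice of both strains gave epididymal fat (eWAT), which is visceral, in a drug experiment. In it, 4 libraries of 129S1/SvImJ and 4 of C57BL/6 came from mice fed rosiglitazone at 36 mg per kg of low fat diet for the final 2 weeks, and 4 and 4 from mice kept on the low fat control diet. All of these mice had eaten the control diet from 6 to 16 weeks of age and were killed at 18 weeks. In a second low fat diet experiment without drug, labelled as 12 weeks, eWAT gave 4 libraries of 129S1/SvImJ and 5 of C57BL/6. Inguinal fat (iWAT), which is subcutaneous, gave 4 libraries of each strain on the same diet. Chow-fed eWAT gave 5 libraries of each strain. The ages of the 12-week and chow mice are not in the labels, no group carries an engineered allele, and the comparisons ask how the strains, the drug and the depots differ. Whether replicates came from separate animals is not in the labels, so p-values here reflect sample-to-sample spread only, which may be technical.

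Cells build cholesterol from acetyl-CoA through mevalonate, isoprenoid units, squalene and lanosterol. When membranes of the endoplasmic reticulum are poor in sterol, SCAP escorts the transcription factor SREBP2 to the Golgi for cleavage, and SREBP2 then raises genes of synthesis. INSIG proteins hold SCAP back when sterol is plentiful, while oxysterols activate LXR, which raises genes of efflux. White adipocytes keep a large store of free cholesterol around their lipid droplets and are better known for storing and releasing sterol than for making it. Rosiglitazone is an antidiabetic drug that activates PPARG, the nuclear receptor that drives adipocyte differentiation.

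The deposited values were whole numbers already normalized by the authors, with a floor of 1, and the depth behind each library is unknown. Library totals of these normalized values lay between 5537632 and 7526303, and were close to each other within a table. Values of C57BL/6 iWAT were coarser, its 4 libraries holding 467 to 679 distinct values against 1293 to 1865 in the rest. All 7 adipocyte markers were above the floor in every group. Correlation between libraries of a group lay between 0.848 and 0.994. Chow-fed 129S1/SvImJ replicate 2 stood apart: its summed level of 6 epididymis markers was 210717, that of replicate 1 was 34004, and the other 3 libraries of the group had 87 to 113. In bulk tissue, fewer cells of a type and less RNA per cell cannot be told apart. Differences below are log2 fold changes of value + 1 with their standard error (SE) from limma, p-values are Benjamini-Hochberg adjusted over all 22869 symbols, and a gene with an adjusted p under 0.05 is said to be called.

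Promoters were read from RefSeq windows on build GRCm38.p6, running from 250 bases before to 50 bases after each start, and 24 of the 30 genes matched. Both strands of the 250 bases before the start were searched for 3 motifs, and counts use the first window listed for each gene. Further windows of genes with several starts were not counted. The motifs were the sterol regulatory element bound by SREBP (TCACNCCAC), the CCAAT box bound by NF-Y (CCAAT, or ATTGG on the other strand), and the GC box bound by SP1 (GGGCGG, or CCGCCC on the other strand). A CCAAT box lay in 18 of the 24 windows (75%), against 34.5% of the 27025 windows of all genes. A GC box lay in 19 of 24 (79.2%), against 32.9% of all windows. Among the enzymes of synthesis the counts were 13 of 15 (86.7%) for the CCAAT box and 14 of 15 (93.3%) for the GC box. The element itself was matched in the window of Hmgcs1 and of no other of the 24, 4.17% against 1.04% of all windows. Of the 37 CCAAT boxes in these windows 27 (73%) read ATTGG in the direction of the gene, against 49.7% of 13298 boxes over all genes. These are matches of letters, which do not show binding. No match was found in the table for Fdps, Fdft1, Sqle, Stard4, Abcg1 and Npc1.

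The Hmgcs1 stretch below, chr13:119690174-119690262 on the plus strand, shows the sterol regulatory element in capitals, in the enzyme that feeds the mevalonate steps.
Hmgcs1: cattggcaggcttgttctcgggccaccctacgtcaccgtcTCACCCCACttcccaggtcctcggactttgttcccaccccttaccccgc
The next 4 sequences are the 250 bases before the start of the genes on which the drug comparison turns, and the last is that of Mylip, an LXR target that went lower in 129S1/SvImJ. They are shown so that the spacing of the boxes can be compared, with CCAAT or ATTGG and GGGCGG or CCGCCC in capitals. Lss is at chr10:76531355-76531604 (plus), Nsdhl at chrX:72918271-72918520 (plus), Sc5d at chr9:42264301-42264550 (minus), Insig1 at chr5:28071162-28071411 (plus) and Mylip at chr13:45389492-45389741 (plus).
Lss: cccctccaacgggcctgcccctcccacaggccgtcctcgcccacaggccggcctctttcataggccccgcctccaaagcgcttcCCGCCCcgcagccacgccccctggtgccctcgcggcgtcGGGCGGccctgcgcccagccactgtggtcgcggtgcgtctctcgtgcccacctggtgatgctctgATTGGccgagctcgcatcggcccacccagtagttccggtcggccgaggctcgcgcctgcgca
Nsdhl: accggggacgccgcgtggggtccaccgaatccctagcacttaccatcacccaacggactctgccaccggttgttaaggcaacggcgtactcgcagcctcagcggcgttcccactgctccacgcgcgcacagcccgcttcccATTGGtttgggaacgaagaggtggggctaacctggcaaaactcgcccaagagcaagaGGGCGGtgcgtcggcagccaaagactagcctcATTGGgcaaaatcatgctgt
Sc5d: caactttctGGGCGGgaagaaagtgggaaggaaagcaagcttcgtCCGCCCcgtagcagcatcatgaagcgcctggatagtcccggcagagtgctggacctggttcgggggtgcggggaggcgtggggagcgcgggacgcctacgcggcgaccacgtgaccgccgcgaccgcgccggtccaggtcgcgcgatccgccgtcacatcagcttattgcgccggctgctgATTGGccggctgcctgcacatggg
Insig1: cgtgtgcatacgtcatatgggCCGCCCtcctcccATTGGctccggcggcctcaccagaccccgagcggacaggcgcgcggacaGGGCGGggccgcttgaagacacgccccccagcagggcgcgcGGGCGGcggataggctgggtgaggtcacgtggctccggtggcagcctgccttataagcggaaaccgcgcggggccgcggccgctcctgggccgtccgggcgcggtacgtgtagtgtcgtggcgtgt
Mylip: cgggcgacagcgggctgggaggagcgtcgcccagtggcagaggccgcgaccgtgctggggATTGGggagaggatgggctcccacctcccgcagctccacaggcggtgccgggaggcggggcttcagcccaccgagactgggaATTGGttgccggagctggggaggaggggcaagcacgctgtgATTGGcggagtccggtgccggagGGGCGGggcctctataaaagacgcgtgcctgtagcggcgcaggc
Lss, Sc5d and Insig1 each held 1 CCAAT box, Nsdhl held 2 and Mylip held 3, all in the ATTGG direction. GC boxes numbered 2 in Lss and Sc5d, 3 in Insig1, and 1 in Nsdhl and Mylip. For Hmgcs1, Nsdhl and Sc5d, the bases shortly after the RefSeq start were not found in a GENCODE transcript of the gene. The place of the start is therefore less certain for them.

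On the control diet, eWAT of 129S1/SvImJ held higher levels of most enzymes of synthesis than eWAT of C57BL/6, and lower levels of the LXR targets Abcg1, Abca1 and Mylip. Of the 30 genes 13 were called higher in 129S1/SvImJ (10.0% of all symbols were) and 3 lower (7.50% of all symbols were), 16 in all against 17.5% of all symbols. Of the 18 enzymes 11 were called higher and none lower, 17 had a fold change above 0, and their median log2 fold change was 0.67, against 0.01 over all symbols. The 129S1/SvImJ and C57BL/6 libraries did not overlap for 13 genes higher in 129S1/SvImJ (9.91% of all symbols) and 3 lower (7.66%).

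Of the 7 mevalonate genes 6 were called higher. Pmvk, phosphomevalonate kinase, had 320, 292, 487 and 308 in 129S1/SvImJ on control diet, against 141, 152, 137 and 158 in C57BL/6. The lowest 129S1/SvImJ library lay well above the highest C57BL/6 library, with a log2 fold change of 1.22 ± 0.18 (SE) and an adjusted p of 9.44e-05. Mvk, mevalonate kinase, had 227, 190, 206 and 223 in 129S1/SvImJ, against 115, 104, 78 and 139 in C57BL/6 (0.98 ± 0.16, adjusted p = 2.63e-04). Fdps, which makes farnesyl pyrophosphate, was low, with 48, 41, 84 and 44 in 129S1/SvImJ against 11, 18, 25 and 27 in C57BL/6 (1.39 ± 0.27, adjusted p = 9.54e-04). For both genes every 129S1/SvImJ library was above every C57BL/6 library. Smaller calls were Acat2, a cytosolic acetoacetyl-CoA thiolase (0.62 ± 0.19, adjusted p = 0.0267), Mvd, the decarboxylase that makes isopentenyl pyrophosphate (0.78 ± 0.22, adjusted p = 0.0157), and Idi1, which isomerises it (1.05 ± 0.32, adjusted p = 0.0263). Values of Idi1 were low, and its fold change lay between 0.60 and 1.24 over the alternatives run. Hmgcs1, HMG-CoA synthase, lay between 1 and 7 in these 8 libraries, near the floor, and was not called.

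Of the 11 squalene and sterol genes 5 were called higher. Nsdhl, which removes a methyl group from the sterol ring, had 258, 226, 402 and 205 in 129S1/SvImJ, against 96, 70, 113 and 96 in C57BL/6 (1.50 ± 0.20, adjusted p = 4.65e-05). Lss, the cyclase that folds oxidosqualene into lanosterol, had 246, 192, 335 and 227 in 129S1/SvImJ, against 121, 107, 148 and 167 in C57BL/6 (0.87 ± 0.17, adjusted p = 0.001). Neither gene's groups overlapped. Sqle, squalene epoxidase, a slow step of the pathway, had 97, 90, 116 and 88 in 129S1/SvImJ, against 39, 48, 66 and 28 in C57BL/6 (1.15 ± 0.21, adjusted p = 5.99e-04). Ebp, the sterol isomerase, had 242, 212, 191 and 193 in 129S1/SvImJ, against 130, 126, 139 and 130 in C57BL/6 (0.66 ± 0.11, adjusted p = 2.21e-04). Again no library of one strain reached the range of the other. Hsd17b7, a sterol ketone reductase, was called with 0.68 ± 0.20 (adjusted p = 0.0236). The other 6 were not called: Cyp51, the lanosterol demethylase, at 0.42 ± 0.16, Msmo1 at 0.36 ± 0.14, Tm7sf2 at 0.64 ± 0.25, Sc5d at 0.29 ± 0.14, Fdft1, squalene synthase, at 0.11 ± 0.14, and Dhcr7, which makes the last double-bond reduction of one branch, at -0.18 ± 0.25.

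Among the sterol sensing genes Insig1, itself a target of SREBP2, was called higher. It had 1421, 1058, 1460 and 1161 in 129S1/SvImJ, against 643, 482, 879 and 434 in C57BL/6 (1.11 ± 0.24, adjusted p = 0.00413). The strains did not overlap. Srebf2, which encodes SREBP2, differed by 0.12 ± 0.12, Scap by 0.07 ± 0.09 and Insig2 by -0.04 ± 0.11, all without a call. Nr1h3, which encodes LXR alpha, was called slightly higher (0.28 ± 0.09, adjusted p = 0.0386). Calls of Acat2, Mvd, Idi1, Hsd17b7 and Nr1h3 did not hold without single libraries, most often C57BL/6 replicate 2 or 3 or 129S1/SvImJ replicate 3, with adjusted p up to 0.132, while the other 11 held whichever library was left out. The same 5 calls were lost in a fit of the 8 control libraries alone, which called 8 genes higher and 3 lower. All 6 endothelial markers had a fold change below 0 in 129S1/SvImJ and 5 of the 6 were called lower, with summed levels of 1912 to 2452 in 129S1/SvImJ and 3083 to 4854 in C57BL/6, and their part in these results was not tested.

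**Figure D1:**
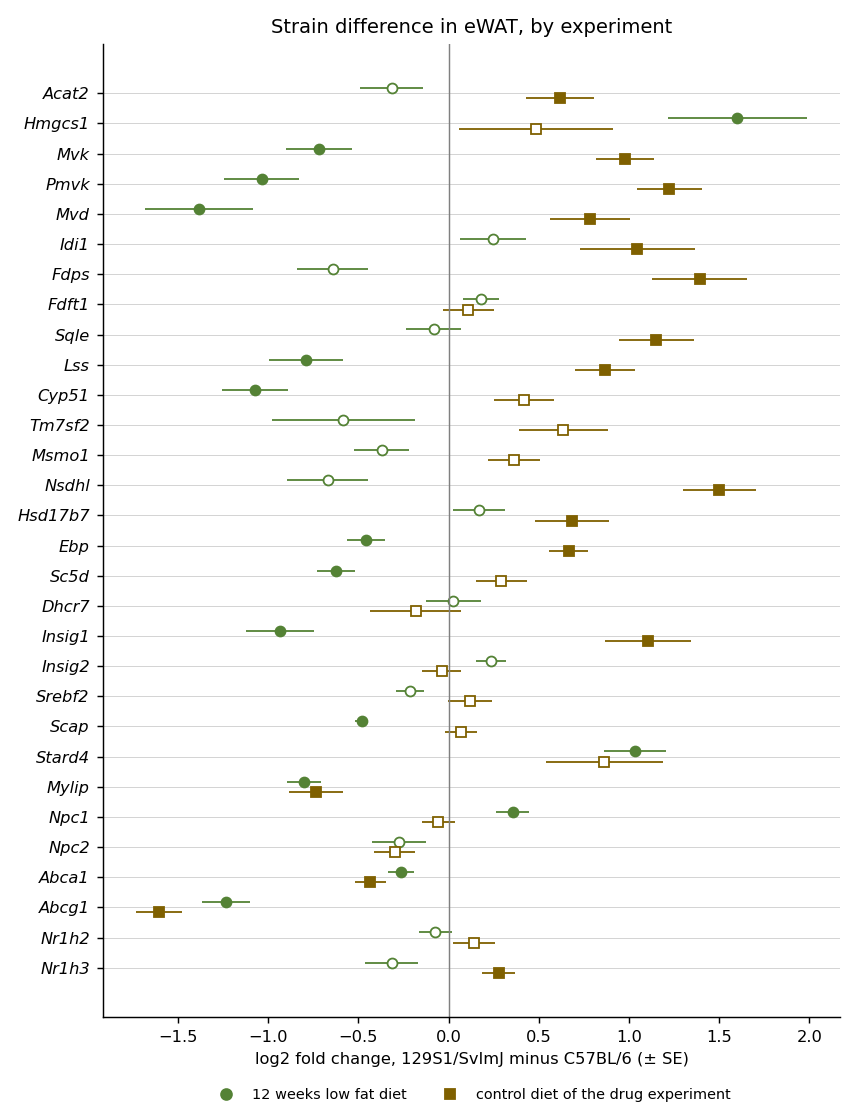
Log2 fold change (129S1/SvImJ minus C57BL/6, ± SE) of the 30 genes in eWAT, in the 12-week low fat diet experiment (green circles) and on the drug experiment's control diet (brown squares); filled symbols are called. Pmvk lies at -1.04 at 12 weeks and at 1.22 on the control diet, whereas Abcg1 lies left of 0 in both.

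After 2 weeks of rosiglitazone, C57BL/6 eWAT held more transcript of most enzymes of synthesis than on control diet, and 129S1/SvImJ eWAT did not show this. The control libraries here are those of the strain comparison above, so these calls and the control diet calls are not independent. In C57BL/6, 10 of the 30 genes were called higher on rosiglitazone (1.53% of all symbols, and 2.43% in either direction) and none lower (0.901% of all symbols, with 2 of the 30 at an unadjusted p under 0.05). Of the 18 enzymes 9 were called and all 18 had a fold change above 0, with a median of 0.82 against 0 over all symbols. In 129S1/SvImJ none of the 30 was called higher by limma (2.96% of all symbols, with 3 of the 30 at an unadjusted p under 0.05) and 1 was called lower (2.56% of all symbols, and 5.51% in either direction). There the enzymes split into 9 above and 9 below 0, with a median of 0.02 against -0.0046 over all symbols. The diets did not overlap for 3 genes higher and 3 lower on rosiglitazone in 129S1/SvImJ (5.17% and 5.09% of all symbols), and for 9 higher and 1 lower in C57BL/6 (3.50% and 2.47% of all symbols).

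Lss had the smallest p of the 30 in the C57BL/6 response. In 129S1/SvImJ it had 297, 326, 246 and 365 on rosiglitazone, against 246, 192, 335 and 227 on control diet, and these groups overlapped (0.32 ± 0.17, adjusted p = 0.34). In C57BL/6 it had 313, 325, 424 and 417 on rosiglitazone, against 121, 107, 148 and 167 on control diet (1.45 ± 0.17, adjusted p = 3.98e-05). Every rosiglitazone library of C57BL/6 held more than any of its control libraries. Insig1 had 1861, 1754, 1545 and 1729 in 129S1/SvImJ on rosiglitazone, against 1421, 1058, 1460 and 1161 on control diet (0.44 ± 0.24, adjusted p = 0.368). In C57BL/6 it had 1355, 1455, 2864 and 2302 on rosiglitazone, against 643, 482, 879 and 434 on control diet (1.69 ± 0.24, adjusted p = 0.00103). Neither strain's groups overlapped for Insig1, although only the C57BL/6 difference was called.

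Nsdhl had 200, 199, 148 and 227 in 129S1/SvImJ on rosiglitazone, against 258, 226, 402 and 205 on control diet (-0.46 ± 0.20, adjusted p = 0.236). In C57BL/6 it had 171, 180, 266 and 262 on rosiglitazone, against 96, 70, 113 and 96 on control diet (1.21 ± 0.20, adjusted p = 0.00203). Drug-fed C57BL/6 thus lay within the range spanned by 129S1/SvImJ libraries, whereas control-fed C57BL/6 lay below all of them. Cyp51 had 182, 194, 127 and 156 in 129S1/SvImJ on rosiglitazone, against 153, 122, 198 and 148 on control diet (0.09 ± 0.16, adjusted p = 0.879). In C57BL/6 it had 192, 235, 245 and 262 on rosiglitazone, against 103, 99, 156 and 107 on control diet (1.02 ± 0.16, adjusted p = 0.00122). The C57BL/6 diets were apart and the 129S1/SvImJ diets mixed.

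The other C57BL/6 calls were Fdps (1.01 ± 0.27), Dhcr7 (0.99 ± 0.25), Acat2 (0.89 ± 0.19), Pmvk (0.87 ± 0.18), Mvd (0.87 ± 0.22) and Hsd17b7 (0.84 ± 0.20), with adjusted p from 0.0109 to 0.0465. These 6 calls were lost without single libraries, and the count of 10 fell to 4 without C57BL/6 rosiglitazone replicate 4 and to 6 without C57BL/6 rosiglitazone replicate 3 or control replicate 2. It was 4 without the trend and robust settings and 1 in a fit of the 8 C57BL/6 libraries alone. Lss, Cyp51, Nsdhl and Insig1 held whichever single library was left out. The fold changes of 5 mesothelial markers on rosiglitazone were all below 0 in 129S1/SvImJ (median log2 fold change -1.01) and all above 0 in C57BL/6 (median 0.57), and their differences of response, 129S1/SvImJ minus C57BL/6, were all below 0 (median -1.56). Their summed level was 592 to 1348 on rosiglitazone against 1293 to 2014 on control diet in 129S1/SvImJ, and 1067 to 1960 against 326 to 2406 in C57BL/6. Of 10 macrophage markers 8 were below 0 on rosiglitazone in 129S1/SvImJ (median -0.56) and 10 in C57BL/6 (median -0.63). None of these 15 markers was called by limma in these 3 comparisons, with 8 of them in 129S1/SvImJ, 5 in C57BL/6 and 2 for the difference at an unadjusted p under 0.05. Of 7 adipocyte markers 6 were above 0 on rosiglitazone in each strain. By limma 3 were called higher in 129S1/SvImJ (2.96% of all symbols) and 1 in C57BL/6 (1.53%). Their summed level was 165967 to 172809 on rosiglitazone against 117473 to 128170 on control diet in 129S1/SvImJ. In C57BL/6 it was 135514 to 156450 against 122545 to 134094. The part of all these markers in the enzyme differences was not tested.

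Members of uptake and efflux had no call in either strain. Mylip moved by -0.11 ± 0.15 in 129S1/SvImJ and by -0.06 ± 0.15 in C57BL/6, Abca1 by -0.04 ± 0.08 and by -0.21 ± 0.08, and Abcg1 by 0.39 ± 0.13 and by 0.21 ± 0.13, in the same order of strains. The call in 129S1/SvImJ was Mvk, with 161, 133, 112 and 172 on rosiglitazone, against 227, 190, 206 and 223 on control diet (-0.56 ± 0.16, adjusted p = 0.0425), and it was lost without any of the 4 control libraries or rosiglitazone replicate 2 or 3 (adjusted p up to 0.146).

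**Figure D2:**
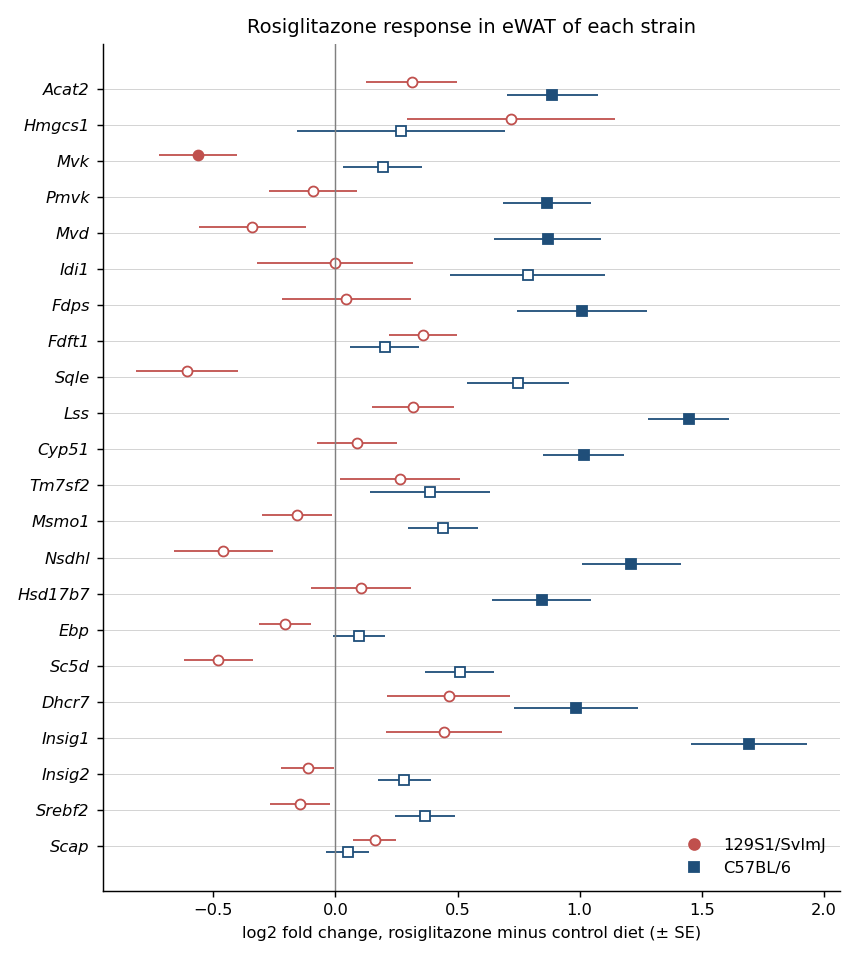
Log2 fold change on rosiglitazone (minus control diet, ± SE) of the 18 enzymes and 4 sterol sensing genes in eWAT, for 129S1/SvImJ (red circles) and C57BL/6 (blue squares); filled symbols are called. All 18 enzymes lie right of 0 in C57BL/6, while 9 do so in 129S1/SvImJ.

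The test of the difference itself, the response in 129S1/SvImJ minus that in C57BL/6, called 3 of the 30 genes lower (0.136% of all symbols, and 0.210% in either direction) and none higher (0.0743% of all symbols, and none of the 30 at an unadjusted p under 0.05). All 3 act in the sterol steps. Nsdhl had a difference of -1.67 ± 0.29 (adjusted p = 0.0165), Lss of -1.13 ± 0.24 (adjusted p = 0.0494) and Sc5d, which introduces a double bond late in the pathway, of -0.99 ± 0.20 (adjusted p = 0.0404). Sc5d had 440, 444, 368 and 445 in 129S1/SvImJ on rosiglitazone, against 594, 582, 561 and 626 on control diet (-0.48 ± 0.14, adjusted p = 0.0502). In C57BL/6 it had 523, 578, 863 and 850 on rosiglitazone, against 546, 386, 522 and 490 on control diet (0.51 ± 0.14, adjusted p = 0.06). So for Sc5d neither strain's own response was called, one being below and the other above 0.

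The next largest differences did not pass. Sqle had 69, 70, 62 and 54 in 129S1/SvImJ on rosiglitazone, against 97, 90, 116 and 88 on control diet, and in C57BL/6 52, 87, 72 and 88 on rosiglitazone, against 39, 48, 66 and 28 on control diet. Its difference of responses was -1.36 ± 0.29 (adjusted p = 0.0599), and that of Insig1 was -1.25 ± 0.33 (adjusted p = 0.165). Over the 18 enzymes 16 differences were below 0, with a median of -0.77 against -0.02 over all symbols. The called differences are near the limit: Nsdhl was lost without 129S1/SvImJ control replicate 1 and without C57BL/6 rosiglitazone replicate 3 (adjusted p up to 0.053), and Lss and Sc5d were each lost without any of 11 of the 16 libraries (up to 0.142 and 0.121). The count of 3 became 0 without 129S1/SvImJ control replicate 1 or C57BL/6 rosiglitazone replicate 3 and 5 without C57BL/6 control replicate 3. It was 1 without C57BL/6 control replicate 1 or 2, C57BL/6 rosiglitazone replicate 4, 129S1/SvImJ control replicate 3 or 4, or 129S1/SvImJ rosiglitazone replicate 1, 2 or 3.

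**Figure D3:**
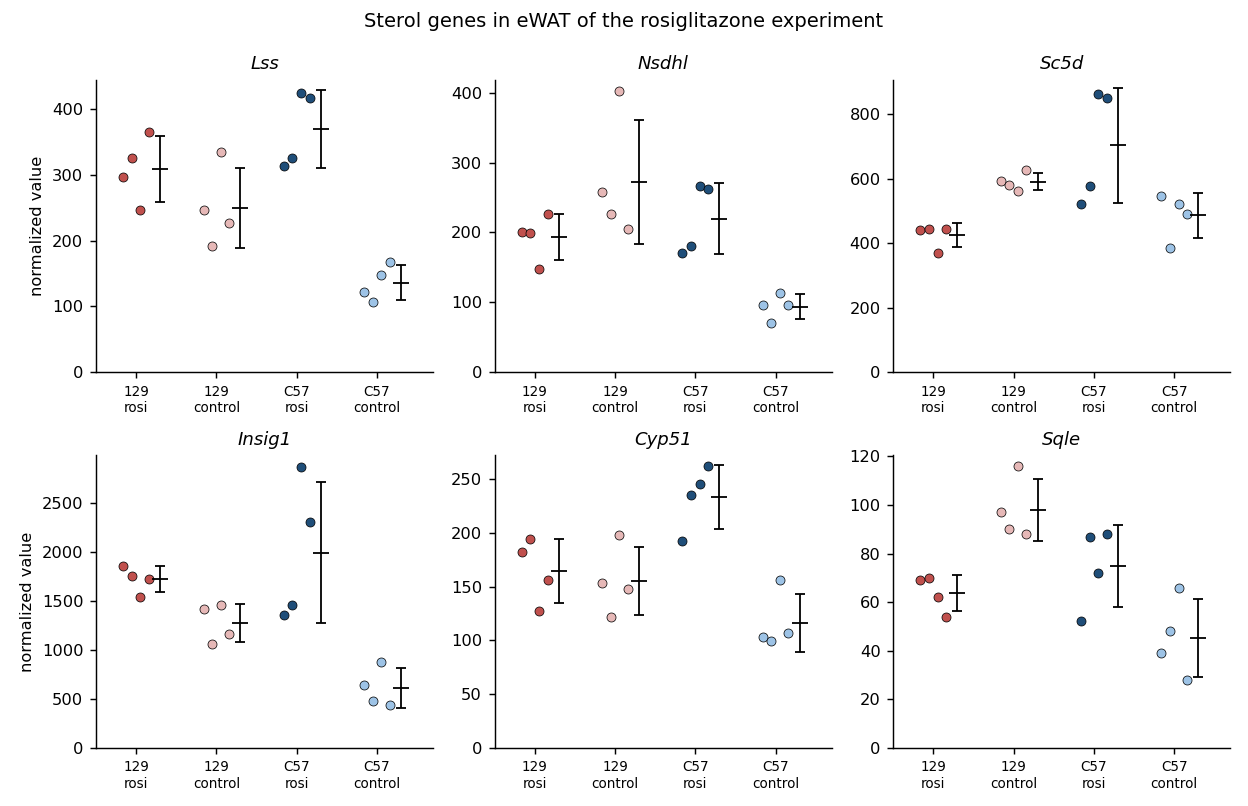
Normalized value of Lss, Nsdhl, Sc5d, Insig1, Cyp51 and Sqle in each eWAT library of the drug experiment (points), with mean ± SD, for 129S1/SvImJ on rosiglitazone and control diet and C57BL/6 on rosiglitazone and control diet (4 libraries each). Control-fed C57BL/6 libraries are the lowest group for Lss, at 107 to 167, and for Nsdhl, at 70 to 113.

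Between the strains on rosiglitazone, few enzymes differed. Of the 30 genes 2 were called higher in 129S1/SvImJ (5.45% of all symbols) and 6 lower (5.23% of all symbols), 8 in all against 10.7%. The strains did not overlap for 3 genes higher and 5 lower in 129S1/SvImJ (6.88% and 6.34% of all symbols), and the median over the enzymes was -0.01, against 0 over all symbols. This comparison shares its libraries with the drug responses, so the values are given beside each other without a test between them. The control diet strain difference, the C57BL/6 response and the difference of responses likewise share the C57BL/6 control libraries. Pmvk differed by 0.27 ± 0.18 on rosiglitazone, Nsdhl by -0.17 ± 0.20, Lss by -0.26 ± 0.17, Sqle by -0.20 ± 0.21 and Insig1 by -0.14 ± 0.24, none of them called. Ebp was still called higher in 129S1/SvImJ (0.36 ± 0.11, adjusted p = 0.0342), with 210, 189, 155 and 173 against 136, 132, 147 and 147 in C57BL/6. Sc5d (-0.70 ± 0.14, adjusted p = 0.00238), Insig2 (-0.43 ± 0.11, adjusted p = 0.0117) and Srebf2 (-0.39 ± 0.12, adjusted p = 0.0459) were lower. Insig2 had 250, 249, 264 and 294 in 129S1/SvImJ, against 384, 302, 369 and 377 in C57BL/6, with no overlap. The count of 8 fell to 5 without C57BL/6 rosiglitazone replicate 2 or 3 or 129S1/SvImJ rosiglitazone replicate 1, the calls lost being among Ebp, Srebf2 and Abca1. In a fit of the 8 rosiglitazone libraries alone it was 3 (Insig2, Abcg1 and Nr1h3), and Sc5d (adjusted p = 0.0896) and Mylip (adjusted p = 0.0771) were lost too.

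In the 12-week low fat diet experiment the strain difference of the enzymes had the other sign: eWAT of 129S1/SvImJ held lower levels than eWAT of C57BL/6 for many of the same genes, while Abcg1, Abca1 and Mylip were again lower in 129S1/SvImJ. Of the 30 genes 3 were called higher in 129S1/SvImJ (11.6% of all symbols) and 12 lower (10.2% of all symbols), 15 in all against 21.7%. The strains did not overlap for 2 genes higher and 14 lower in 129S1/SvImJ (11.1% and 9.93% of all symbols). Of the 18 enzymes 1 was called higher and 7 lower, 13 had a fold change below 0, and the median was -0.52, against 0 over all symbols.

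In the mevalonate steps Pmvk had 163, 290, 223 and 230 in 129S1/SvImJ at 12 weeks, against 393, 604, 479, 354 and 492 in C57BL/6 (-1.04 ± 0.21, adjusted p = 0.0121). Mvd had 26, 50, 37 and 41 in 129S1/SvImJ, against 68, 165, 115, 76 and 99 in C57BL/6 (-1.38 ± 0.30, adjusted p = 0.016). The groups of both genes were apart, with 129S1/SvImJ lower. Mvk was called too (-0.72 ± 0.18, adjusted p = 0.0295). The call in the other direction was Hmgcs1, with 14, 9, 5 and 5 in 129S1/SvImJ and 4, 1, 1, 2 and 2 in C57BL/6 (1.60 ± 0.39, adjusted p = 0.0242), values near the floor of 1. In the sterol steps Cyp51 had 139, 132, 157 and 141 in 129S1/SvImJ, against 241, 458, 290, 261 and 289 in C57BL/6 (-1.07 ± 0.18, adjusted p = 0.00628). Sc5d had 590, 624, 543 and 614 in 129S1/SvImJ, against 750, 1087, 950, 859 and 959 in C57BL/6 (-0.63 ± 0.11, adjusted p = 0.00606). The strains were apart for both. Lss (-0.79 ± 0.21, adjusted p = 0.0323) and Ebp (-0.46 ± 0.11, adjusted p = 0.0209) were called lower as well, and Nsdhl, with no overlap between the strains, was not (-0.67 ± 0.23, adjusted p = 0.0762).

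Insig1 had 934, 1095, 816 and 1042 in 129S1/SvImJ at 12 weeks, against 1570, 2751, 1694, 1551 and 1907 in C57BL/6 (-0.94 ± 0.19, adjusted p = 0.0119). Scap, the escort of SREBP2, had 225, 237, 215 and 227 in 129S1/SvImJ, against 303, 306, 323, 319 and 330 in C57BL/6 (-0.48 ± 0.04, adjusted p = 2.78e-04). The spread within each strain was small beside the gap between them. Stard4, a soluble carrier of sterol between membranes, ran the other way, with 106, 71, 80 and 72 in 129S1/SvImJ, against 47, 37, 30, 46 and 38 in C57BL/6 (1.03 ± 0.17, adjusted p = 0.00549). Npc1, which exports cholesterol from lysosomes, was called higher (0.35 ± 0.09, adjusted p = 0.03), and its partner Npc2 was not called (-0.27 ± 0.15). In the drug experiment, Stard4 on control diet was 0.86 ± 0.32, without a call but with no overlap between the strains. The C57BL/6 replicate 3 library had summed skeletal muscle markers of 9844, against 142 to 470 in the other C57BL/6 libraries and 144 to 367 in 129S1/SvImJ, and without it 11 members were called, 1 higher and 10 lower. Of the 15 calls 9 held whichever library was left out, and those of Hmgcs1, Mvk, Lss, Ebp, Npc1 and Abca1 did not, with adjusted p up to 0.0876. All 6 endothelial markers were called lower in 129S1/SvImJ here, with summed levels of 1693 to 2346 in 129S1/SvImJ and 4272 to 4769 in C57BL/6, and their part was not tested.

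Set beside each other, the experiments share no library. Of the 13 genes called higher on control diet and the 12 called lower at 12 weeks, 6 were in both lists (46.2% of the first and 50% of the second): Ebp, Insig1, Lss, Mvd, Mvk and Pmvk. Of the 13 and 14 genes whose strains did not overlap in these directions, 8 were in both lists (61.5% and 57.1%), which adds Nsdhl and Sc5d. Abca1, Abcg1 and Mylip were the 3 genes called lower on control diet, and all 3 were called lower at 12 weeks too. None of the 13 genes called higher on control diet was called higher at 12 weeks. Over all symbols, 183 of the 2290 called higher on control diet were called lower at 12 weeks (7.99%, or 0.8% of all symbols), 673 were called higher in both (29.4%), and 665 of the 1716 called lower on control diet were called lower in both (38.8%). Of the 2267 symbols whose strains did not overlap, with 129S1/SvImJ higher on control diet, 230 did not overlap in the other direction at 12 weeks (10.1%). The tables were normalized separately, so the difference between the experiments was not tested. The labels give them separate experiment and library numbers, and the low fat diet adds up to 12 weeks in both. In the 12-week experiment the library numbers of the strains do not run on, so that strain cannot be told apart from library series there.

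The 3 LXR targets picked here, Abcg1, Abca1 and Mylip, were lower in eWAT of 129S1/SvImJ in each low fat diet comparison. LXR targets outside the members were not gathered, so LXR activity as a whole was not tested. Lpcat3, counted below with other pathway genes and not as an LXR target, was higher in 129S1/SvImJ on control diet. It had 372 to 434 there, against 289 to 311 in C57BL/6. On rosiglitazone and at 12 weeks the strains overlapped for Lpcat3. Abcg1, a transporter that passes cholesterol to high-density lipoprotein, had 282, 207, 298 and 312 in 129S1/SvImJ on rosiglitazone, against 705, 789, 800 and 639 in C57BL/6 (-1.42 ± 0.13, adjusted p = 1.45e-07). On control diet it had 222, 248, 191 and 173 in 129S1/SvImJ, against 659, 624, 678 and 567 in C57BL/6 (-1.61 ± 0.13, adjusted p = 2.83e-08). At 12 weeks it had 252, 237, 179 and 202 in 129S1/SvImJ, against 614, 455, 440, 527 and 526 in C57BL/6 (-1.23 ± 0.14, adjusted p = 0.00106). In all 3 comparisons the highest 129S1/SvImJ library was below the lowest C57BL/6 library, and the call held whichever library was left out. In chow-fed eWAT it had 128, 142, 174, 174 and 241 in 129S1/SvImJ, against 310, 159, 389, 319 and 266 in C57BL/6, where the groups overlapped and the difference was not called (-0.72 ± 0.26, adjusted p = 0.19).

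Mylip, the ubiquitin ligase that marks lipoprotein receptors for degradation, had 197, 222, 236 and 159 in 129S1/SvImJ on rosiglitazone, against 368, 469, 330 and 262 in C57BL/6 (-0.79 ± 0.15, adjusted p = 0.00132). On control diet it had 215, 220, 237 and 201 in 129S1/SvImJ, against 377, 411, 382 and 296 in C57BL/6 (-0.74 ± 0.15, adjusted p = 0.00157). The strains were apart on both diets, though the rosiglitazone call was lost in a fit of those 8 libraries alone. At 12 weeks it had 138, 191, 160 and 184 in 129S1/SvImJ, against 311, 278, 294, 293 and 284 in C57BL/6 (-0.80 ± 0.10, adjusted p = 0.0015). Abca1, which loads cholesterol onto apolipoprotein A-I, had the smallest differences of the 3. On control diet it had 3836, 4069, 4293 and 4403 in 129S1/SvImJ, against 5901, 5685, 5410 and 5410 in C57BL/6 (-0.43 ± 0.08, adjusted p = 0.00114). On rosiglitazone (-0.27 ± 0.08, adjusted p = 0.0426) and at 12 weeks (-0.26 ± 0.07, adjusted p = 0.0351) its calls were lost without most single libraries, 6 of 8 and 7 of 9. The receptor genes ran otherwise. Nr1h3 was called higher in 129S1/SvImJ on rosiglitazone (0.41 ± 0.09, adjusted p = 0.00504) and on control diet, and was -0.32 ± 0.15 without a call at 12 weeks. Nr1h2, which encodes LXR beta and has a processed pseudogene that could share its reads, was called in no comparison.

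Macrophages also express these transporters. The summed level of 10 macrophage markers was 2485 to 4257 in 129S1/SvImJ and 2109 to 5129 in C57BL/6 on rosiglitazone, 4042 to 6056 and 3719 to 7345 on control diet, and 5276 to 8592 and 6136 to 8891 at 12 weeks, in the same order of strains. The summed ranges overlapped in each comparison, but at 12 weeks 3 of the 10 markers were called: C1qa (321 to 581 in 129S1/SvImJ, 778 to 1149 in C57BL/6) and C1qb (312 to 564, and 574 to 870) were lower in 129S1/SvImJ, and Mpeg1 (314 to 575, and 121 to 191) was higher. All 6 endothelial markers were below 0 in 129S1/SvImJ on rosiglitazone, as on control diet and at 12 weeks. On rosiglitazone 2 were called lower (5.23% of all symbols), with summed levels of 1726 to 2822 in 129S1/SvImJ and 2341 to 3673 in C57BL/6. The part of macrophage and endothelial markers in the transporter differences was not tested.

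**Figure D4:**
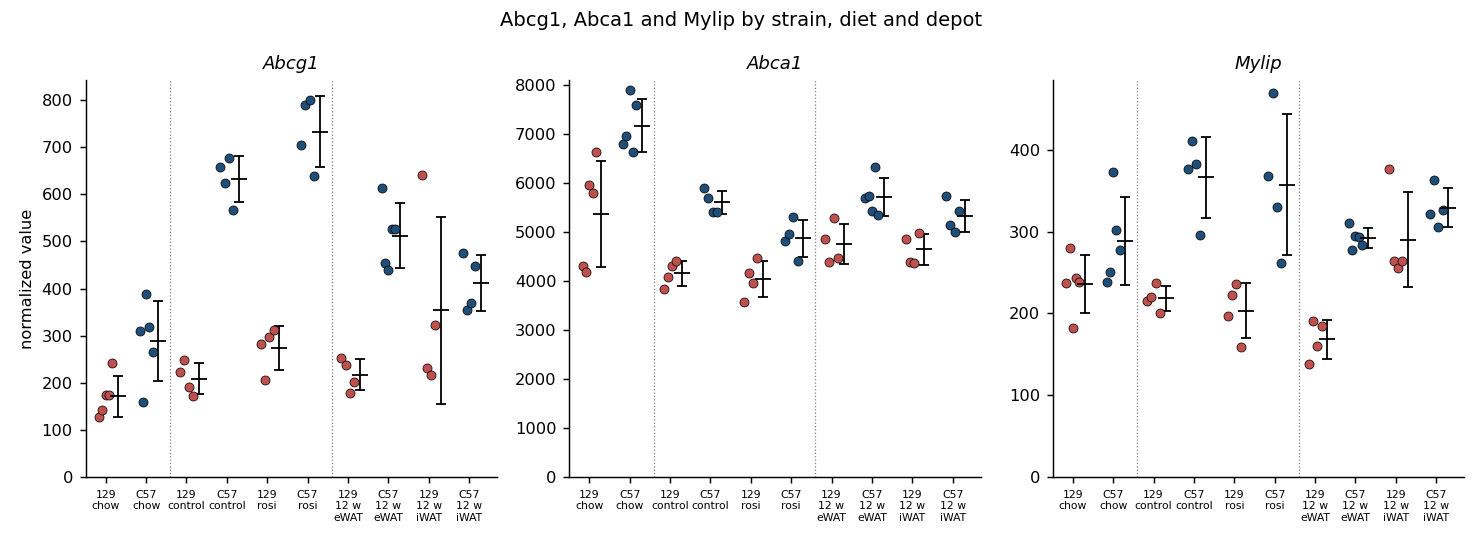
Normalized value of Abcg1, Abca1 and Mylip in each library (points), with mean ± SD, for 129S1/SvImJ (red) and C57BL/6 (blue) by diet and depot; dotted lines part tables that were normalized separately. In eWAT on control diet Abcg1 lies at 173 to 248 in 129S1/SvImJ and at 567 to 678 in C57BL/6, and in iWAT the strains overlap.

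In iWAT after the same 12 weeks, no member was called between the strains by limma, higher (1.13% of all symbols) or lower (0.560% of all symbols, and 1.69% in either direction), and 9 of the 30 had an unadjusted p under 0.05, 8 of them lower in 129S1/SvImJ. The strains did not overlap for 7 genes lower in 129S1/SvImJ (3.67% of all symbols) and 1 higher (4.11% of all symbols). Msmo1, a C-4 sterol methyl oxidase, had 93, 115, 102 and 74 in 129S1/SvImJ, against 183, 223, 159 and 162 in C57BL/6 (-0.92 ± 0.17, adjusted p = 0.07). Insig1 had 1303, 1225, 1346 and 1504 in 129S1/SvImJ, against 2732, 2134, 2597 and 1795 in C57BL/6 (-0.77 ± 0.15, adjusted p = 0.078). Both were below C57BL/6 in every library, without a call. Stard4 was the gene above, with 119, 68, 64 and 65 in 129S1/SvImJ and 35, 36, 59 and 17 in C57BL/6 (1.16 ± 0.41, adjusted p = 0.31). Abcg1 had 642, 232, 217 and 323 in 129S1/SvImJ, against 476, 355, 370 and 447 in C57BL/6, so that 1 library of 129S1/SvImJ, replicate 1, exceeded every other (-0.35 ± 0.36, adjusted p = 0.816). That library also had the highest summed level of 6 B and T cell markers, 3287, and replicate 4 had 1054, against 25 and 41 in the other 129S1/SvImJ libraries, while C57BL/6 replicate 4 had 1502 against 16 to 96 in the other C57BL/6 libraries. Without these 3 libraries, an alternative chosen after seeing the data, 1 member was called lower in 129S1/SvImJ iWAT than in C57BL/6, 1 between the depots of 129S1/SvImJ, 3 between those of C57BL/6 and 2 for the difference of depot effects.

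The scale of the iWAT comparison is uncertain. Of the 18 enzymes 16 had a fold change below 0 in the normalized values, with a median of -0.43 against 0 over all symbols. In the authors' deposited table of fold changes, which run C57BL/6 over 129S1/SvImJ and are turned round here, 10 of the 18 were below 0 and 7 above, with a median of -0.14. Over the 15971 rows with a mean of at least 20, the authors' deposited table sat a median of 0.37 above the fold changes of their own tabulated values, while in the other comparisons this shift lay between -0.14 and 0.06.

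Few of these genes were called between the depots of a strain. Library numbers of the depots do not run on in either strain, so that depot cannot be told apart from library series. The depot comparisons take eWAT and iWAT values to be on 1 scale, which is uncertain for the coarser C57BL/6 iWAT libraries. In 129S1/SvImJ, 1 of the 30 was called higher in iWAT (0.525% of all symbols, and 1.72% in either direction) and none lower (1.19% of all symbols, with 5 of the 30 at an unadjusted p under 0.05). It was Mylip, with 377, 264, 255 and 264 in iWAT, against 138, 191, 160 and 184 in eWAT (0.77 ± 0.12, adjusted p = 0.00353), and the depots did not overlap. The value of 377 came from replicate 1, the iWAT library with summed B and T cell markers of 3287. In C57BL/6, 1 was called lower in iWAT (7.81% of all symbols, and 13.1% in either direction) and none higher by limma (5.27% of all symbols, with none of the 30 at an unadjusted p under 0.05). It was Ebp, with 136, 166, 167 and 123 in iWAT, against 240, 284, 283, 233 and 249 in eWAT (-0.80 ± 0.13, adjusted p = 0.00114). Both calls held whichever library was left out, but the Mylip call was lost in a fit of the 129S1/SvImJ libraries alone (adjusted p = 0.154). Each count became 2 without 129S1/SvImJ iWAT replicate 2 or 3, or without C57BL/6 iWAT replicate 1 or 3. The depots did not overlap for 3 genes higher and 4 lower in iWAT of 129S1/SvImJ (2.26% and 4.04% of all symbols), and for 0 higher and 2 lower in C57BL/6 (6.53% and 9.15% of all symbols). The enzymes' median was -0.11 in 129S1/SvImJ and 0.0014 in C57BL/6, against 0 over all symbols in each. No member was called for a difference between the strains in the depot effect by limma (1.43% of all symbols higher and 1.70% lower, 3.14% in either direction, with 4 and 5 of the 30 at an unadjusted p under 0.05), among them Mylip at 0.60 ± 0.17 (adjusted p = 0.0728) and Ebp at 0.63 ± 0.19 (adjusted p = 0.0875), and 1 was called without iWAT replicate 1 of either strain. Mesothelial markers, which cover visceral fat, summed to 5 to 17 in iWAT libraries and to 1465 to 2406 in eWAT libraries of this diet.

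Chow-fed eWAT showed a single call. Ebp was higher in 129S1/SvImJ, with 185, 188, 218, 231 and 232 against 132, 143, 171, 158 and 165 in C57BL/6 (0.45 ± 0.10, adjusted p = 0.0329), 1 gene of 30 where 2.39% of all symbols were called higher and 4.99% in either direction. The strains did not overlap for 4 genes higher (3.62% of all symbols) and 0 lower (4.00% of all symbols). No member was called lower by limma (2.61% of all symbols, with 2 of the 30 at an unadjusted p under 0.05). The Ebp call was lost without any of 7 of the 10 libraries (C57BL/6 replicate 1, 2, 4 or 5, or 129S1/SvImJ replicate 3, 4 or 5), with adjusted p up to 0.0873. The median over the 18 enzymes was 0.36 against 0 over all symbols, and 14 were above 0. In 129S1/SvImJ replicate 2, the library with the high epididymis markers, Npc2, an abundant secreted protein of the epididymis, reached 9164, against 1872 to 1993 in the other 129S1/SvImJ libraries and 1382 to 1869 in C57BL/6. Nsdhl reached 574 there against 119 to 139 in the other 129S1/SvImJ libraries, and Srebf2 790 against 199 to 290. The summed adipocyte markers of that library were 20312, against 108387 to 153115 in the other 129S1/SvImJ libraries. With 129S1/SvImJ replicates 1 and 2 left out, 2 members were called. Summed skin and glandular epithelium markers were 1388 and 1521 in C57BL/6 replicates 2 and 5, against 26 to 56 in the other C57BL/6 libraries. They were 2074 and 4929 in 129S1/SvImJ replicates 1 and 2, against 84 to 160 in the other 129S1/SvImJ libraries.

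**Figure D5:**
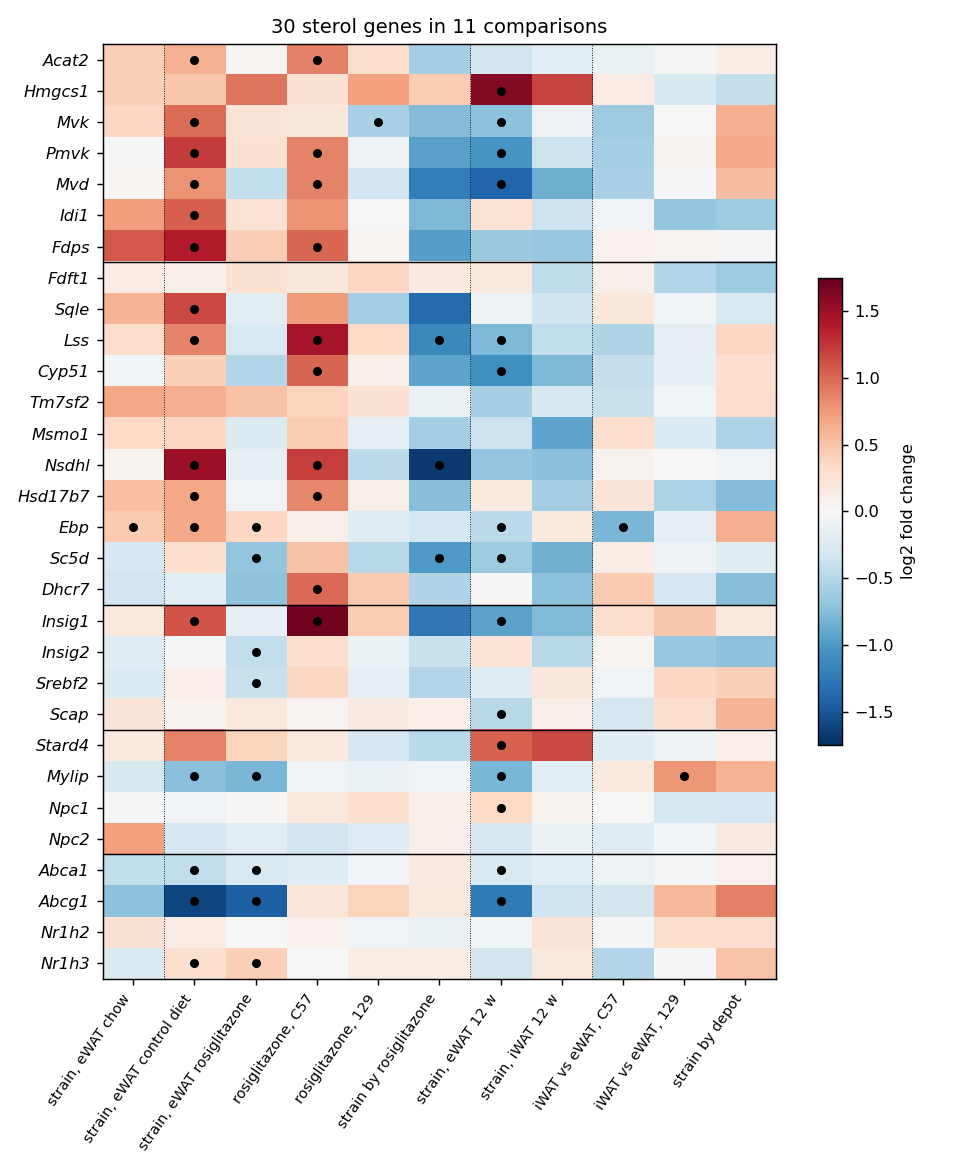
Log2 fold change of the 30 genes (rows, by role, parted by lines) in the 11 comparisons (columns); red is higher and blue lower in the first-named group, 129S1/SvImJ, rosiglitazone or iWAT, and black dots mark calls. The strain columns show mostly red enzymes on control diet, with 11 called, and mostly blue ones at 12 weeks, with 7 called lower.

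Around the 30 genes, 24 others of the pathway were counted in 3 lists of 8: processing of SREBP and sterol-regulated degradation, the isoprenoid branch, and cholesterol esters and sterol handling. In the processing and degradation list, 2 of 8 were called higher on rosiglitazone (5.45% of all symbols), 3 on control diet (10.0%), 4 at 12 weeks (11.6%) and 2 on chow (2.39%), and none lower in these 4 by limma. Among them were Erlin1, an adaptor of sterol-regulated degradation, at 0.43 ± 0.12 on rosiglitazone and 0.63 ± 0.12 on control diet, Faf2 at 0.35 ± 0.04 at 12 weeks and 0.23 ± 0.05 on chow, and the SREBP protease Mbtps2 at 1.08 ± 0.19 at 12 weeks. In the isoprenoid list Fnta, a farnesyltransferase subunit, was called higher on rosiglitazone (0.54 ± 0.11) and on control diet (0.75 ± 0.11), with Coq2, of ubiquinone synthesis, also higher on control diet (0.64 ± 0.12). At 12 weeks Dhdds (0.56 ± 0.09) and Fntb (0.51 ± 0.09) were higher and Ggps1 lower (-0.31 ± 0.05).

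The sterol handling list held 2 genes that moved with the drug in both strains. Lpcat3, a phospholipid remodelling enzyme, had 779, 632, 544 and 718 in 129S1/SvImJ on rosiglitazone, against 433, 420, 434 and 372 on control diet (0.68 ± 0.11, adjusted p = 3.91e-04). In C57BL/6 it had 636, 549, 731 and 640 on rosiglitazone, against 289, 311, 307 and 291 on control diet (1.08 ± 0.11, adjusted p = 8.87e-06). It rose in both strains with no overlap between diets. Cyp27a1, which makes an oxysterol, fell in both, with log2 fold changes of -0.58 ± 0.16 in 129S1/SvImJ (adjusted p = 0.0354, with overlap between diets) and -1.01 ± 0.16 in C57BL/6 (adjusted p = 0.00109). Further calls between the strains were Nceh1, a cholesterol ester hydrolase, at 0.83 ± 0.20 and Stard3 at -0.56 ± 0.12 at 12 weeks, and Lpcat3 at 0.47 ± 0.11 on control diet. Fntb was called at 0.60 ± 0.16 for the response of 129S1/SvImJ to rosiglitazone. Between depots of C57BL/6, Mbtps2 (0.67 ± 0.17) and Dhdds (0.58 ± 0.12) were higher and Cyp27a1 lower (-0.97 ± 0.17) in iWAT, and Mbtps2 differed between the strains in its depot effect (-1.13 ± 0.25, adjusted p = 0.0283).

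Some members share exon bases with another gene in the annotation, and the sources used here do not give whether counting used strand. On the same strand, Fdps shares 1124 bases with Gm43738, Tm7sf2 532 with Vps51 and Nr1h3 34 with Gm13783. On the opposite strand, Fdft1 shares 774 bases with Ctsb, Npc1 511 with Rmc1 and 90 with Gm15956, Cyp51 166 with Akap9, Scap 985 with 5830462I19Rik, Hmgcs1 557 with Gm48342, Lss 381 with 4930483K19Rik and Idi1 323 with Gm48574. Values of these 10 genes may hold reads of their partners. The authors' deposited table has p-values of its own, of which 20 of the 30 were under 0.05 between the strains on control diet (18 with 129S1/SvImJ higher), 23 at 12 weeks in eWAT (3 higher and 20 lower), 9 for rosiglitazone in 129S1/SvImJ (4 higher and 5 lower) and 16 in C57BL/6 (all higher). The authors' deposited table also has 3 genes higher and 1 lower under 0.05 in 129S1/SvImJ eWAT on chow. In iWAT it has 2 under 0.05, Stard4 and Nr1h3, both higher in 129S1/SvImJ, while 8 of the 9 genes with an unadjusted p under 0.05 by limma were lower.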

How the data were processed

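Expression was measured by RNA-seq in 43 libraries of 10 groups, and 5 libraries of F1 mice and 1 nascent RNA library were not analysed here. Per the submitters' processing notes the tool was HOMER and the genome build mm9. The sources used here do not give the counting or normalization steps, nor how strain variants were handled when reads were mapped to that 1 build. Whether mapping differed between the strains was not tested, for any gene. Each of 5 tables holds, per transcript, a score deposited by the authors for each library: whole numbers after normalization, none below 1. Their totals of normalized values leave the depth unknown, so no counting interval was computed. Beside them stand a log2 fold change and a p-value of the authors for each comparison, with no statement on adjustment. The 8 control diet libraries stand in 2 tables with identical values and were used once. The eWAT and iWAT tables of the 12-week diet share 1 scale, and the chow and drug tables were normalized separately.

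Of 28644 transcript rows, that with the highest total was kept for each of 22869 symbols. Values were analysed as log2(value + 1), which understates fold changes of low genes, with limma 3.58.1 in R 4.3.3 with trend and robust settings, and the method was tested on simulated data. The drug experiment was fitted on its 16 libraries, the depots on 17, and the other strain comparisons each on their own libraries. Tests were two-sided, Benjamini-Hochberg adjusted over all symbols within each of 11 comparisons, with a threshold of 0.05. Genes named were all 30 members and, of 24 other pathway genes, up to 3 called genes of each list per comparison with the smallest p. Some of those called genes are not reported here, though the list counts include them. The members and lists were chosen with earlier results of these data known. Promoters came from RefSeq (GRCm38.p6) and exon overlaps from GENCODE annotation of that assembly, while the files use mm9, so no coordinate was carried between builds. Alternatives were pseudocount 8, a mean of at least 10, no trend and robust settings, array weights, transcripts summed per symbol, median scaling, a replicate block, a fit of the 2 groups compared alone, and leaving out libraries.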

Additional observations from a re-analysis of the deposited data

Results flagged for a closer look

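Of 300 combinations of gene and group, 28 had a library apart from the rest of its group by Dixon's test, 11 of them in chow-fed 129S1/SvImJ replicate 2; chance flags about 1 in 20 groups. In that library, values above the rest of the group were 957 for Acat2, 83 for Mvd, 671 for Fdft1, 273 for Lss, 603 for Cyp51, 250 for Tm7sf2, 445 for Msmo1, 574 for Nsdhl, 180 for Hsd17b7, 790 for Srebf2 and 9164 for Npc2. In 129S1/SvImJ on control diet, replicate 3 was high for Acat2 (423), Pmvk (487), Fdps (84) and Tm7sf2 (59), and replicate 2 for Npc2 (2403). In C57BL/6 at 12 weeks, eWAT replicate 2 was high for Acat2 (651), Fdft1 (329) and Cyp51 (458). In iWAT, Hmgcs1 was 13 in 129S1/SvImJ replicate 2 and 11 in C57BL/6 replicate 3, and 129S1/SvImJ replicate 1 was high for Stard4 (119) and Mylip (377). In 129S1/SvImJ on rosiglitazone, Sc5d was low in replicate 3 (368) and Nr1h2 high in replicate 4 (267). In C57BL/6 on control diet Cyp51 was high in replicate 3 (156), and Tm7sf2 was 24 in replicate 1 against 23 in the other 3, a gap of 1 unit. Hsd17b7 was low in chow-fed C57BL/6 replicate 3 (53).

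The response to rosiglitazone differed between 129S1/SvImJ and C57BL/6 in a test of the difference itself for Nsdhl (-1.67), Lss (-1.13) and Sc5d (-0.99, all log2). For 8 genes every library of one strain lay above the other on the control diet and below it at 12 weeks, and this difference between the experiments was not tested. The log2 fold changes of 129S1/SvImJ over C57BL/6 at 12 weeks and on control diet were -0.72 and 0.98 for Mvk, -1.04 and 1.22 for Pmvk, and -1.38 and 0.78 for Mvd. They were -0.79 and 0.87 for Lss, -0.67 and 1.50 for Nsdhl, and -0.46 and 0.66 for Ebp. For Sc5d they were -0.63 and 0.29, and for Insig1 -0.94 and 1.11.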

How the results depend on the processing

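No member named with a call changed sign under any alternative run. Leaving out 1 library at a time gave 0 to 1 members called on chow, 12 to 17 on control diet (16 with all libraries), 5 to 7 between strains on rosiglitazone (8), 4 to 10 for rosiglitazone in C57BL/6 (10), 0 to 1 in 129S1/SvImJ (1), 0 to 5 for the difference of responses (3), 11 to 14 at 12 weeks in eWAT (15), 0 in iWAT (0), 1 to 2 between depots in each strain (1) and 0 to 1 for the strain difference in the depot effect (0). Array weights gave 2 members on chow, 3 for rosiglitazone in 129S1/SvImJ, 1 in iWAT, 2 and 2 for the depots of 129S1/SvImJ and C57BL/6 and 1 for their difference. Without trend and robust settings the drug called 0 members in 129S1/SvImJ and 4 in C57BL/6, and the difference of responses 0. Fitting the 2 groups alone gave 3 between strains on rosiglitazone, 2 for the drug in 129S1/SvImJ and 1 in C57BL/6, and 0 and 2 for the depots of 129S1/SvImJ and C57BL/6. These fits have fewer libraries to estimate the spread. A mean of at least 10 gave 3 for the drug in 129S1/SvImJ, 2 in iWAT, and 3 and 2 for the depots in the same order. Pseudocount 8 gave 1, and transcripts summed per symbol 1, for the difference of responses, and the sum gave 0 for the drug in 129S1/SvImJ. With 129S1/SvImJ chow replicates 1 and 2 left out, 2 members were called on chow. Chosen after seeing the data, a fit without the 3 iWAT libraries with high B and T cell markers gave 1 member in iWAT. It gave 1 and 3 for the depots of 129S1/SvImJ and C57BL/6 and 2 for their difference. Also chosen after seeing the data, a fit without the 4 chow libraries with high skin and glandular epithelium markers gave 1. The cause of the other moves was not tested. Counts under alternatives, here and above, stand without the share of all symbols called under the same alternative. A fall in members called is therefore not told apart here from a fall in calls over all symbols.

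Replicate numbers did not pair the libraries: same-numbered libraries correlated between -0.492 and 0.519. With the replicate block, 2 members were called at 12 weeks in eWAT in place of 15, 1 for the strain difference in the depot effect, 1 on chow, 17 on control diet, 6 between strains on rosiglitazone, 10 for the drug in C57BL/6, 1 in 129S1/SvImJ, 3 for the difference of responses, 0 in iWAT and 1 in each depot comparison. Median scaling moved the median of all symbols by -0.0202 to 0.0128. Libraries of a table already had the same highest value and close totals, so this alternative could move little and does not test the normalization. The depth is unknown, so the precision of low values such as those of Hmgcs1 and Idi1 cannot be given, and the coarser C57BL/6 iWAT libraries resolve low values less well.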
